A study of Mus musculus with 20 samples.

Results

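The transcripts of 10 immediate early and early response genes were examined across 20 mouse livers: Fos, Jun, Junb, Egr1, Ier2, Ier3, Csrnp1, Btg2, Gadd45b and Myc. Every array probe whose platform annotation carries 1 of these symbols was taken, which gave 13 probes for 10 of the 19057 genes named on the array. Of the 10 genes, 7 had a probe detected in at least 5 of 20 livers (8 probes, since Gadd45b had a pair), among 9262 named genes that passed this filter. Ier2, Btg2 and Myc did not pass it. The list was chosen on results of the group comparisons in these same livers, in which Csrnp1 had been called, so differences between groups are given below as descriptions. Standard errors and 95% intervals are those of the fit and do not allow for this choice. The differences of Csrnp1, listed after its call, may be too large for the same reason. The fit takes 1 spread for all groups, so intervals against a more scattered group may be too narrow. Calls of the fit are printed beside the share of all probes called, with nothing read from them. Array number and the covariation of livers within a group were not used in the choice and were tested for the members.

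The study asked how long-term probucol or coenzyme Q10 (CoQ10) feeding alters liver expression in mice with primary coenzyme Q deficiency. The platform was the Illumina WG-6 v2.0 mouse BeadChip, with the total RNA of 1 liver on each array and 5 female mice in each of 4 groups. Wild-type B6 mice on standard chow were 215 to 217 days old. The other 3 groups were B6.Pdss2(kd/kd) mice, homozygous for a missense allele of Pdss2, a subunit of the enzyme that makes the isoprenoid tail of coenzyme Q, with the allele in every tissue; Pdss2 itself was not analysed here. Untreated mutants on the same chow were 129 to 143 days old, mutants on chow with 1% (w/w) probucol (about 95 mg per kg body weight per day) 140 to 145 days, and mutants given CoQ10 at 1 mg/ml (about 400 mg per kg per day) 153 to 156 days. Wild-type and mutant ages did not overlap, nor did those of CoQ10-fed mutants and either other mutant group, so genotype or CoQ10 feeding cannot be told apart from age in the comparisons between them.

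In 10 of the 20 livers, all 5 labelled untreated mutant and all 5 labelled probucol, the prefix of the array name is that of the opposite group. Groups were taken from the treatment field, and every statement on these 10 livers holds as labelled there. Urine albumin in the same label records was 13.52 to 57.34 mg per 24 h for the untreated group, 0.84 to 1.86 for probucol and 0.14 to 0.20 for wild type. The glomerular nephritis scores were 2 to 4 untreated, 0 in 3 of 5 and at most 3 with probucol, and 0 to 1 in wild type. These records differ between the groups as the treatment field names them, but leave unknown which liver was put on which array. Wild-type and CoQ10 livers are free of this conflict. The arrays detected between 12268 and 15003 probes each (median 13495), and hepatocyte transcripts such as Ttr and Apoa1 were detected in 20 of 20 livers. Untreated livers 1 and 4 and probucol livers 1, 2 and 4 were set apart when these arrays were first examined, on grounds not shown here. Differences are given without them where this moved the differences most, so these values describe dependence on the livers kept and are not better estimates. In whole liver, fewer cells of a type and less RNA per cell cannot be told apart.

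Immediate early genes are transcribed within minutes of a stimulus, before any new protein is made, because kinase cascades act on transcription factors already bound at their promoters. Their transcripts are short-lived. Fos, Jun and Junb encode AP-1 subunits and Egr1 a zinc finger factor, and in liver all are known to respond to growth factors, feeding and regeneration. Csrnp1 encodes a cysteine- and serine-rich nuclear protein that was first described in human cells as a gene induced by AXIN1.

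Promoter sequences of the AP-1 genes and Csrnp1 are shown because these genes are read together below. Entries for 7 of the members were taken from the RefSeq promoter table (build GRCm38.p6), and none for Egr1, Ier2 and Myc, whose promoters were not searched. Each entry runs from 250 bases before to 50 bases after a transcript start. Csrnp1 had 4 entries, of which the outermost and the one holding AP-1 letters are printed. Sequences run 5′ to 3′ on the gene's strand, and capitals mark every match, on either strand, to 5 motifs. These were the cAMP response element (CRE) with the letters TGACGTCA and the core of that element, which is TGACG. The AP-1 motif had the letters TGANTCA, the EGR motif was spelled GCGNGGGCG and the TATA motif was read as TATAAA. The Fos entry lies at chr12:85473640-85473939 (plus strand), Jun at chr4:95052173-95052472 (minus), Junb at chr8:84978699-84978998 (minus), and the Csrnp1 entries at chr9:119984693-119984992 and chr9:119982974-119983273 (minus).
Fos: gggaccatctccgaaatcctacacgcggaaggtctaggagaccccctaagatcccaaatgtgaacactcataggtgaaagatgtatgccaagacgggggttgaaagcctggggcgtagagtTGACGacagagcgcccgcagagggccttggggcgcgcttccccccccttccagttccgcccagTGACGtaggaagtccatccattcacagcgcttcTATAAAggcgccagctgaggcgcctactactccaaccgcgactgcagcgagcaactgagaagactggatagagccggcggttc
Jun: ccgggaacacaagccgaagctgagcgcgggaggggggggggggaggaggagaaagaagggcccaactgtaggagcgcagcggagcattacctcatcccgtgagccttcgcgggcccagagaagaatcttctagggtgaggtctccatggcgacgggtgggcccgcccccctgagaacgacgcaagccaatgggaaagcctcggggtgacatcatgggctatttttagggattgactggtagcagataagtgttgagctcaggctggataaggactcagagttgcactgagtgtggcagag
Junb: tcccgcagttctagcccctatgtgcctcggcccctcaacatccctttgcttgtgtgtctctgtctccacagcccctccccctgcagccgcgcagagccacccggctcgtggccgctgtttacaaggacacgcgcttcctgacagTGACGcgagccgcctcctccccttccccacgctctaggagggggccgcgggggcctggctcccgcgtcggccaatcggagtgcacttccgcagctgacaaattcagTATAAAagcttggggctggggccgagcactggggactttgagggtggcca
Csrnp1, outermost: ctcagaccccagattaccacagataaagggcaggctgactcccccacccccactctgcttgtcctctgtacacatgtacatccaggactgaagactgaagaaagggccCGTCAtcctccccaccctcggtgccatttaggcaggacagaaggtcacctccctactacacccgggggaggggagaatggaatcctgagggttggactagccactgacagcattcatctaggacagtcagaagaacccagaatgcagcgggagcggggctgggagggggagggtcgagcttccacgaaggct
Csrnp1, with AP-1 letters: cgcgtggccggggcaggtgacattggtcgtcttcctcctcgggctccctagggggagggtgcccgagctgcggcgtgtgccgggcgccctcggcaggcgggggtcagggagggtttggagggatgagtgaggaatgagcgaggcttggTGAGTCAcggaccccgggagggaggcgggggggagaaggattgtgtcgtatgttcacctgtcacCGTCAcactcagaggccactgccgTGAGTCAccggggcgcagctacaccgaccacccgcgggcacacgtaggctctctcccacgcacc

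The Fos window held 2 matches to the CRE core and 1 TATA match, Junb 1 of each, and Jun none of the searched letters. Of the Csrnp1 entries printed, the outermost held 1 CRE core and the other 1 CRE core and 2 AP-1 matches. Over all 32851 promoter entries, 20.8% held the CRE core, 13.6% the TATA motif, 7.81% the AP-1 motif, 5.55% the EGR motif and 1.79% the full CRE. Of the members with an entry taken, Btg2 held a full CRE (1 match, overlapping its 2 core matches), and Btg2 and Gadd45b each held 1 EGR match. A CArG box was in 1.63% of all entries and in none of these 5 windows. These are matches of letters in short windows and were not tied to any difference between livers.

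Csrnp1 was lowest in the CoQ10-fed mutants, where all 5 livers lay below all 15 others. On the scale of normalised log2 intensity, the wild-type livers 1 to 5 lay at 8.70, 8.72, 9.16, 8.68 and 8.70. The untreated mutants lay at 8.46, 8.96, 9.07, 8.72 and 9.66. The probucol group overlapped the lower part of the untreated group and ended just under wild type, with values of 8.39, 8.56, 8.16, 8.15 and 8.63. CoQ10-fed livers lay at 7.83, 7.86, 7.72, 7.54 and 7.47, so that their highest value stayed below the lowest of any other group. Before normalisation the bead intensities overlapped at the edge, at 307.4 to 451.6 with CoQ10 against lowest values of 426.5 with probucol and 442.0 in the untreated group. Among the 15096 kept probes, 8 (0.053%) had all CoQ10 livers below all others and 6 (0.0397%) above.

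The order of the Csrnp1 group means was CoQ10 (7.68 ± 0.17, SD, n = 5), probucol (8.38 ± 0.22), wild type (8.79 ± 0.21) and untreated mutant (8.97 ± 0.45). The last 2 overlapped widely and differed by 0.18 ± 0.17 (log2, SE of the limma fit; 95% interval -0.18 to 0.55). CoQ10 minus untreated was -1.29 ± 0.17 (interval -1.65 to -0.93), which is 2.45-fold lower, and CoQ10 minus wild type was -1.11 ± 0.17 (-1.47 to -0.75), 2.15-fold lower. Probucol lay between, at -0.60 ± 0.17 against untreated (-0.96 to -0.24), -0.41 ± 0.17 against wild type and 0.70 ± 0.17 above CoQ10 (0.34 to 1.06). Its range did not overlap wild type (8.63 against 8.68 at the edge) or CoQ10, but did overlap untreated. If the array name prefix rather than the treatment field were right, the untreated and probucol values would trade places, and CoQ10 minus untreated would be -0.70.

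Without untreated livers 1 and 4, CoQ10 minus untreated in Csrnp1 was -1.55, and probucol minus untreated was -0.85. Without probucol livers 1, 2 and 4, probucol minus untreated was -0.58, minus wild type -0.40 and minus CoQ10 0.71. Within the array numbers 1, 2, 3 and 4 of the array names CoQ10 minus untreated was -0.64, -1.16, -1.0 and -2.15, with 1 or 2 livers a group in each. CoQ10 minus wild type within these numbers was -0.88, -1.30, -0.96 and -1.20. The sign of these values was fixed in advance, since all CoQ10 livers lay below all others, so only their size is described. The CoQ10 differences were smaller with no background correction (-0.78 against untreated, -0.65 against wild type) and in the authors' deposited log2 values (-0.81 and -0.67).

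**Figure D1:**
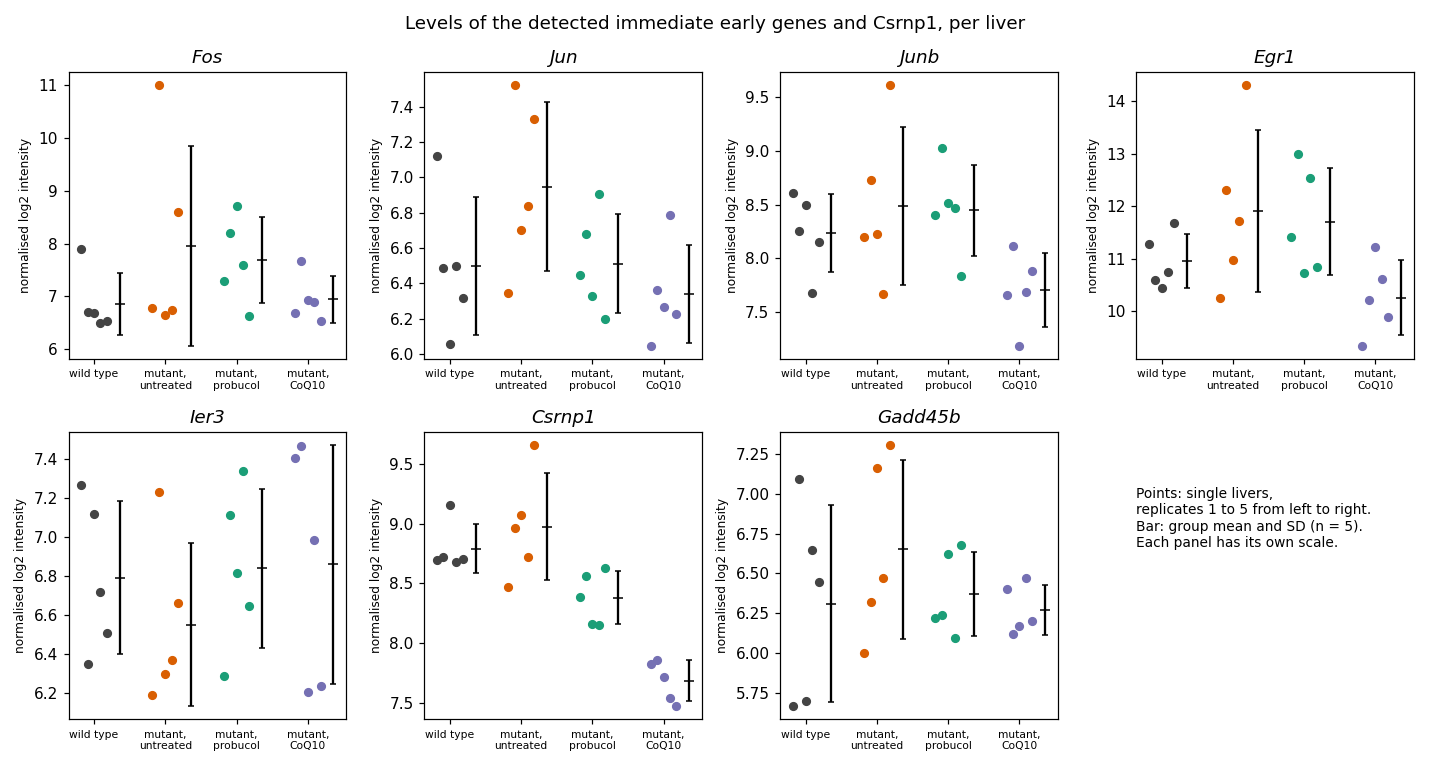
Normalised log2 intensity (vertical axis, its own scale in each panel) of the 7 detected genes in each of 20 livers, by group; bars are the group mean and SD (n = 5). The CoQ10 points of Csrnp1 (7.47 to 7.86) sit below every other liver, while single untreated livers stand high in Fos (11.01) and Egr1 (14.31).

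Fos, the AP-1 subunit whose transcript is the classic marker of recent stimulation, was spread by single livers rather than by group. In wild type its values were 7.90, 6.70, 6.68, 6.49 and 6.52, so liver 1 stood above 4 near-equal ones. The untreated mutants spanned the widest range, at 6.78, 11.01, 6.65, 6.73 and 8.60. Probucol livers were at 7.29, 8.20, 8.72, 7.59 and 6.63, and CoQ10 livers were at 6.68, 7.68, 6.94, 6.89 and 6.53. The median was highest with probucol, at 7.59, against 6.78 untreated, 6.89 with CoQ10 and 6.68 in wild type. All 4 groups overlapped. Untreated minus wild type was 1.10 ± 0.61 (-0.17 to 2.36) and CoQ10 minus untreated -1.01 ± 0.61 (-2.28 to 0.25). Without untreated liver 2 these were 0.33 and -0.25, and without untreated livers 1 and 4 they were 1.90 and -1.81. The size of both thus turned on which untreated livers were kept. With no background correction they were 0.68 and -0.66.

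Egr1 encodes a zinc finger factor that is transcribed alongside Fos. Wild-type livers lay at 11.27, 10.60, 10.45, 10.74 and 11.68, and untreated mutants at 10.26, 12.30, 10.98, 11.72 and 14.31. Probucol livers were at 11.42, 13.00, 10.73, 12.54 and 10.83 and CoQ10 livers at 9.34, 10.21, 11.23, 10.61 and 9.88. The highest single value was in untreated liver 5 and the lowest in CoQ10 liver 1, and every pair of groups overlapped. The SD was 1.54 untreated, 1.02 with probucol, 0.72 with CoQ10 and 0.51 in wild type. The fit shares 1 spread over all groups, so intervals against the untreated group may be too narrow. CoQ10 minus untreated was -1.66 ± 0.57 (-2.85 to -0.47), or 3.16-fold lower, and probucol minus CoQ10 was 1.45 ± 0.57 (0.26 to 2.64). Leaving out untreated liver 5 brought the former to -1.06, leaving out untreated livers 1 and 4 brought it to -2.27, and within the array numbers it ran from -4.07 to -0.49. The latter was 0.53 without probucol livers 1, 2 and 4. Untreated minus wild type was 0.97 ± 0.57 with all livers, 0.37 without untreated liver 5 and 1.58 without untreated livers 1 and 4. The liver that was highest in Egr1 was also highest in Junb, Csrnp1 and Gadd45b, whereas untreated liver 2 was highest in Fos and Jun.

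Junb, an AP-1 subunit that can oppose Jun at shared targets, had its lowest group mean under CoQ10, like Egr1. Its values were 8.61, 8.26, 8.50, 7.68 and 8.16 in wild type and 8.20, 8.73, 8.22, 7.67 and 9.61 in untreated mutants. Probucol livers were at 8.40, 9.03, 8.51, 8.46 and 7.84, and CoQ10 livers at 7.66, 8.12, 7.19, 7.69 and 7.88. The CoQ10 range began below and ended inside those of the other groups. The SD was 0.73 untreated and 0.34 with CoQ10, so the shared spread may again make the interval against untreated too narrow. CoQ10 minus untreated was -0.78 ± 0.28 (-1.36 to -0.19), -0.50 without untreated liver 5 and -1.15 without untreated livers 1 and 4. It was -0.46 with no background correction and -0.48 in the authors' deposited log2 values. CoQ10 minus wild type was -0.53 ± 0.28 (-1.12 to 0.06). A further Junb probe was detected in 0 of 20 livers and gave no level.

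Jun, the main partner of Fos in AP-1, was near the detection limit, with 17 of 20 livers detected. Wild-type values were 7.12, 6.49, 6.06, 6.50 and 6.32 and untreated values 6.34, 7.52, 6.70, 6.84 and 7.33. Those of the probucol group were 6.45, 6.68, 6.33, 6.91 and 6.20, and those of the CoQ10 group 6.05, 6.37, 6.27, 6.79 and 6.22. The groups overlapped throughout. CoQ10 minus untreated was -0.61 ± 0.22 (-1.06 to -0.16), untreated minus wild type 0.45 ± 0.22 and probucol minus untreated -0.44 ± 0.22. With no background correction the first of these was -0.22 and the second 0.16, and in the authors' deposited log2 values they were -0.23 and 0.19.

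Ier3 encodes a small early response protein linked to cell survival. Among the detected members, each by its brightest probe, it was the only one whose CoQ10 mean did not lie below the untreated mean. It was detected in 18 of 20 livers and ranged from 6.19 to 7.47 over all of them, with both extremes among mutants. CoQ10 minus untreated was 0.31 ± 0.27 (-0.25 to 0.87), and untreated minus wild type was -0.24 ± 0.27 (-0.80 to 0.32). Gadd45b, whose product binds and activates a kinase upstream of p38 and JNK, was detected in 12 of 20 livers by its brighter probe (5.67 to 7.31) and in 5 of 20 by the other (5.50 to 6.54). For CoQ10 minus untreated the pair differed in sign, at -0.38 ± 0.26 and 0.08 ± 0.16, with intervals that both spanned 0. Without untreated livers 1 and 4 the brighter probe was at -0.66.

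The remaining 3 members were at or below background. Btg2, an antiproliferative gene whose product recruits the CCR4-NOT deadenylase, was detected in 2 of 20 livers, both fed CoQ10. Its values were 6.08, 6.45, 5.99, 6.23 and 5.92 with CoQ10 and between 5.62 and 6.12 elsewhere, so the groups overlapped close to the detection limit. The Myc probes, for the growth-related factor that pairs with Max, were detected in 1 and 0 of 20 livers. Ier2, which encodes a nuclear early response protein, was detected in 0 of 20.

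Set side by side, 6 of the 7 detected members had a lower mean with CoQ10 than in untreated mutants, with a median log2 difference of -0.78 against 0.0040 over all kept probes. In untreated mutants against wild type, 6 of 7 were positive (median 0.34 against -0.0023 over all), and in probucol against untreated 6 of 7 were negative (-0.27 against 0.0012). These 3 comparisons share the untreated livers, so a high untreated liver enters all of them. For CoQ10 minus wild type, without those livers, 5 of 7 were negative with a median of -0.16 (-0.0052 over all). Probucol minus wild type gave 6 of 7 positive (0.06 against -0.010), and probucol minus CoQ10 6 of 7 positive (0.70 against -0.010).

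At an adjusted p under 0.05 over all 15096 kept probes (limma), 1 member was called in CoQ10 minus untreated, Csrnp1, whose call was known when the list was chosen. There 0.119% of all probes were called. The same gene was called in CoQ10 minus wild type, where 0.437% were. No other member was called in these comparisons, and none of the 7 in untreated minus wild type (0.119% of all probes), probucol minus untreated (0.0132%), probucol minus wild type (0.702%) or probucol minus CoQ10 (0.0464%). At an unadjusted p under 0.05 the members in these 4 numbered 1, 1, 1 and 3, where all kept probes numbered 831, 926, 1857 and 1503. In CoQ10 minus untreated and minus wild type the members numbered 4 and 1, and all kept probes 1415 and 2006. Groups of 5 that did not overlap, which occurred for Csrnp1 in 4 comparisons, made up 1.68% of probes in CoQ10 minus untreated, 4.61% in CoQ10 minus wild type, 3.13% in probucol minus wild type and 1.52% in probucol minus CoQ10. Because the list was chosen on these comparisons, nothing is read from the members' counts. With median scaling in place of quantile normalisation Csrnp1 was not called in either CoQ10 comparison, at differences of -1.34 and -1.15.

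**Figure D2:**
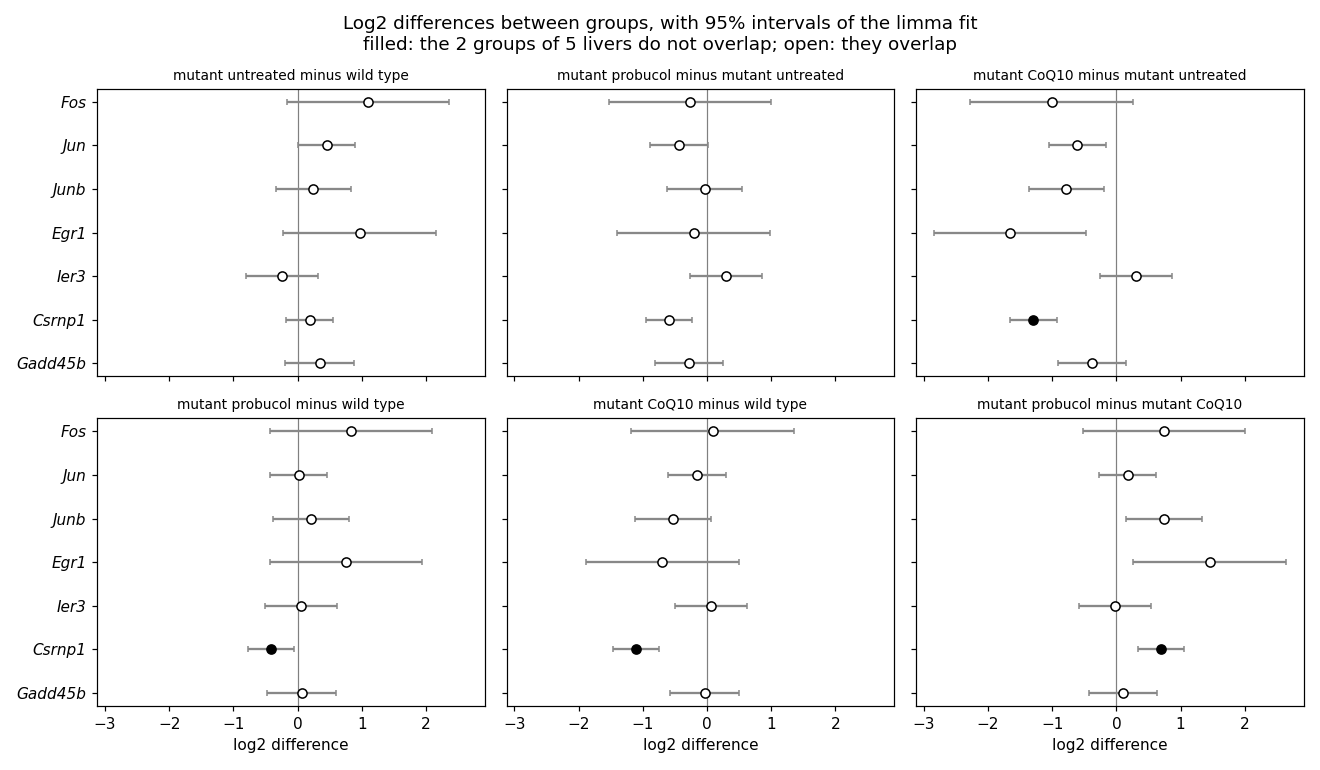
Log2 differences (horizontal axis) of the 7 detected genes in the 6 comparisons of groups, with 95% intervals of the limma fit; filled points mark groups of 5 livers that did not overlap. Csrnp1 is filled in 4 panels and has the narrowest intervals, while Fos and Egr1 have the widest.

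Livers of the same group differed more in each detected gene's main probe than in the median kept probe. The SD of deviations from group means was 1.09 for Fos and 1.02 for Egr1, above that of 99.9% and 99.8% of kept probes, whose median was 0.26. Junb (0.49), Ier3 (0.47) and Gadd45b (0.45) lay at percentiles 93.7, 92.4 and 91.0, and Jun (0.37) at 82.1. Csrnp1 was nearest to the median, with an SD of 0.28 at percentile 61.1.

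Deviations from the group means, which do not use differences between groups, were then correlated over 20 livers for all 21 pairs of detected members. With Benjamini-Hochberg adjustment over these pairs, 3 passed by Pearson's r in a two-sided permutation test of 100000 permutations within groups. Jun and Egr1 had r = 0.68 (permutation p = 0.0037, adjusted 0.0384) and rho = 0.75 (permutation p = 0.0011, adjusted 0.0231). Fos and Jun had r = 0.67 (permutation p = 0.0055, adjusted 0.0384) and rho = 0.66 (permutation p = 0.0060, adjusted 0.0410). For Fos and Ier3 these were r = 0.59 (permutation p = 0.0031, adjusted 0.0384) and rho = 0.58 (permutation p = 0.0078, adjusted 0.0410). In these pairs, livers above their group in one gene tended to be above it in the other.

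Without the 2 livers farthest from the median of the first gene, r for Jun and Egr1 was 0.77 (adjusted permutation p = 0.0458). For Fos and Jun it was 0.50 (adjusted permutation p = 0.339) and for Fos and Ier3 0.43 (adjusted 0.222). With fewer livers these calls were thus lost, while r was smaller and stayed positive. With array number removed as well, r was 0.70, 0.71 and 0.52 in the same order. Fos and Junb passed by rank alone (rho = 0.72, adjusted permutation p = 0.0302; r = 0.58, adjusted 0.215). Leaving out any 1 of 8 livers ended all 3 calls, namely wild-type 1, probucol 1, 2 and 5, and untreated 1, 3, 4 and 5.

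Csrnp1 did not pass with any other member. Its r was 0.53 with Junb, 0.47 with Egr1, 0.32 with Gadd45b, 0.27 with Ier3, 0.18 with Fos and 0.11 with Jun (adjusted permutation p from 0.221 to 0.824). Without the 2 farthest livers r was 0.16 for the first pair and 0.05 for the second. A p that misses the threshold does not show that these genes vary independently. Gadd45b had values near 0 or below with most members, from -0.29 with Ier3 to 0.32 with Csrnp1.

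**Figure D3:**
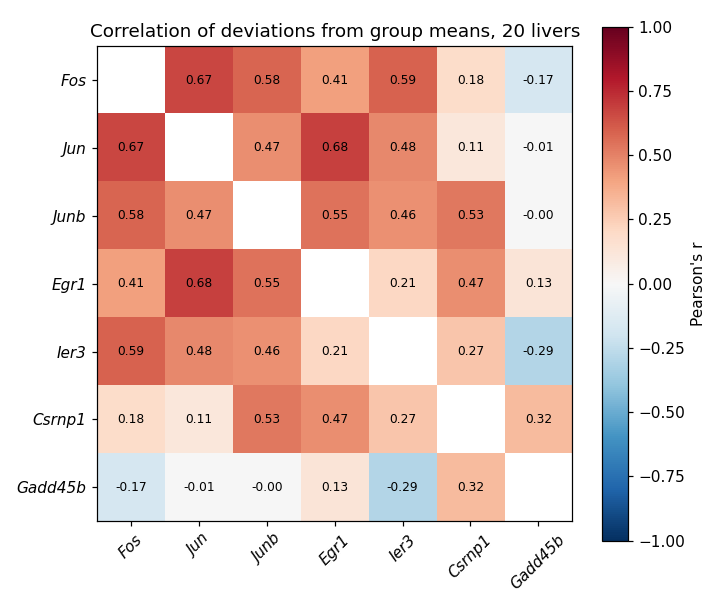
Pearson's r (colour and number in each cell) between the 7 detected genes, computed on deviations from group means over 20 livers. Cells among Fos, Jun, Junb, Egr1 and Ier3 run from 0.21 to 0.68, and those of Csrnp1 with the same genes from 0.11 to 0.53.

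Array number, the digit from 1 to 4 in the array name, was tested as a factor beside group. By limma's F test 7.27% of kept probes were called for it (1097 of 15096). Of the 7 members 0 were, with adjusted p values from 0.31 for Junb to 0.98 for Jun. At an unadjusted p under 0.05 there were 0 members and 4071 of the 15096 kept probes. With only 7 members and 7.27% of probes called, 0 calls cannot show that the members were free of it. What the number stands for is not stated in the labels.

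Genes whose deviations were most like those of Csrnp1 over 20 livers were Scarf1 (r = 0.80), Ciart (0.79), Irf2 (0.77), Pfdn2 (0.76) and Csnk1d (0.75). Ciart and Csnk1d encode a repressor and a kinase of the circadian clock, and Irf2 an interferon regulatory factor. Their CoQ10-minus-untreated differences were negative for 4 of 5, at -0.69 ± 0.26 for Ciart, -0.63 ± 0.16 for Irf2, -0.29 ± 0.15 for Csnk1d and -0.13 ± 0.17 for Pfdn2, and positive for Scarf1 (0.52 ± 0.17). Most like Fos were Dact2 (0.83), Borcs6 (0.82), Tnfaip2, Sri (both 0.80) and Ppard (0.79). These are the highest coefficients over all named kept probes and are given with no test.

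Other genes of the same response were taken as 4 lists, of which none was adjusted on its own. Over all 15096 kept probes, 831 to 2006 had an unadjusted p under 0.05 by limma, depending on the comparison, and 1415 in CoQ10 minus untreated. Of 25 other immediate early transcription factors, 9 were detected and 0 were called by limma in any of the 6 comparisons. Among them, 1 to 3 had an unadjusted p under 0.05, with 3 in CoQ10 minus untreated. With CoQ10 against untreated, 8 of these 9 lay lower (median -0.31), led by Klf9, a glucocorticoid-responsive factor (-0.85 ± 0.24), and Bhlhe40, a clock-linked repressor (-0.81 ± 0.25). Klf9 lay at 11.45 to 11.91 with CoQ10 and 12.04 to 13.03 without treatment, so these groups did not overlap, yet its adjusted p was 0.19. Klf6 differed by -0.31 ± 0.15. The Fos-family member Fosl2 was the 1 detected of Fosb, Fosl1, Fosl2 and Jund, with -0.11 ± 0.17 for CoQ10 and 0.39 ± 0.17 for probucol against untreated.

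The signalling and feedback list held 24 detected of 33 genes, with 0 called by limma. At an unadjusted p under 0.05 there were 2 to 7, with 7 in CoQ10 minus untreated. In CoQ10 against untreated it was split, 11 positive and 13 negative (median -0.03). Zfp36, whose product binds AU-rich elements and shortens the life of early response transcripts, had the smallest p of the list, at -1.12 ± 0.24 (adjusted p = 0.059). Its ranges were 10.67 to 11.92 in wild type, 11.22 to 12.29 untreated, 10.45 to 11.28 with probucol and 10.07 to 10.71 with CoQ10, which did not overlap untreated. Tob2, a relative of Btg2, was at -0.70 ± 0.20 and Plk2, a kinase, at 0.59 ± 0.21. In untreated mutants against wild type 15 of 24 were negative (median -0.15), with Zfp36l1 at -0.70 ± 0.23 and Dusp6, a phosphatase of ERK kinases, at -0.51 ± 0.20. For probucol against untreated 14 of 24 were negative (median -0.13), among them Nfkbia, an NF-kappa-B inhibitor, at -0.57 ± 0.22. Against wild type, 21 of 24 were negative with probucol (median -0.27) and 17 of 24 with CoQ10 (median -0.33), and probucol minus CoQ10 had 14 of 24 negative (median -0.07).

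Among upstream kinases and factors, 14 of 24 were detected, 0 were called by limma (0 to 3 at an unadjusted p under 0.05), and the medians stayed between -0.07 and 0.11. Egfr, the receptor for epidermal growth factor, was at 0.72 ± 0.35 in untreated against wild type and -0.70 ± 0.35 in CoQ10 against untreated. Of 11 Myc partners and antagonists 5 were detected, and Mycl, a Myc paralog, was called lower in CoQ10 against wild type (-1.26 ± 0.19, limma adjusted p = 0.002). The list had 0 calls by limma in the other 5 comparisons (1 or 2 at an unadjusted p under 0.05). Mycl levels were 8.56 to 9.52 in wild type and 7.69 to 8.39 with CoQ10. Untreated mutants (7.67 to 8.66) overlapped both, and their difference from wild type was -0.82 ± 0.19 (adjusted p = 0.14).

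**Figure D4:**
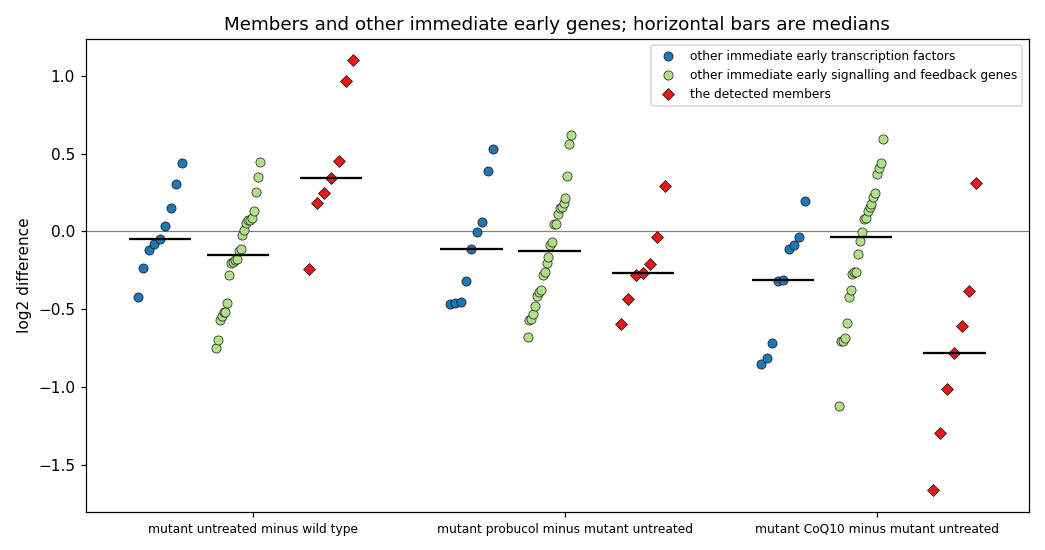
Log2 differences (vertical axis) of single genes in 3 comparisons, for the 7 detected members, 9 other immediate early transcription factors and 24 signalling and feedback genes; horizontal bars are medians. Under CoQ10 against untreated the medians are -0.78, -0.31 and -0.03 for these groups.

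Markers of other liver cells were read beside these values. Summed levels cover every marker named on the array, detected or not. Of 12 Kupffer cell markers 10 were detected. The summed linear level of the 11 on the array was 10227 to 12120 in wild type, 11716 to 14643 untreated, 12677 to 14034 with probucol and 12981 to 17118 with CoQ10. In CoQ10 against untreated 9 of the 10 detected were higher in mean (median log2 difference 0.20), and in untreated against wild type 10 of 10 were (median 0.27). Of 11 stellate cell markers 7 were detected. The summed level of all 11 was 15518 to 17288 in wild type, 16038 to 17336 untreated, 12556 to 15774 with probucol and 15256 to 17805 with CoQ10. The probucol and untreated ranges did not overlap, and 6 of 7 stellate markers were lower with probucol (median -0.27). None of the markers was called by limma in untreated against wild type or in either treatment against untreated. For cholangiocytes 2 of 8 markers were detected. The summed level of the 6 on the array, most of them not detected, was 1060 to 1464 in wild type and 600 to 772 untreated. Neutrophil markers were detected for 2 of 7 genes and B cell markers for 0 of the 3 on the array. The part of these cell types in the members' differences was not tested.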

How the data were processed

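The authors deposited bead intensity on a linear scale, not background-subtracted or normalised, judged from the values. A deposited detection fraction beside it (0 to 1) rose with intensity, so 1 minus it served as detection p. The authors also deposited normalised log2 values of the same arrays (column medians 7.81 to 7.82, each column matching its own liver best), used as an alternative. Their normalisation was not given in the sources used here.

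Intensities were background-corrected by normexp with parameters inferred from detection p (offset 16), quantile-normalised and log2-transformed with limma 3.58.1 in R 4.3.3. Probes with detection p under 0.05 in at least 5 of 20 arrays were kept (15096 of 45281). Platform annotation named 34885 probes with 1 symbol, 18 with several and 10378 with none; 34807 matched the GRCm38.p6 gene table and 0 symbols changed. A gene's kept probe of highest mean stands for it. One limma model with 4 group means covered all arrays, with Benjamini-Hochberg adjustment over kept probes. The number of arrays limits the precision.

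Members and lists were chosen with earlier results of these data known. Up to 3 genes of smallest p per list were named in each of the first 3 comparisons, with Fos- and Jun-family partners, and the 5 genes most like Csrnp1 and the most variable member. Fits were tested on simulated data. Alternatives covered background correction, scaling, the authors' values, filters, blocks, the exchanged labels and single livers left out.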

Additional observations from a re-analysis of the deposited data

Results flagged for a closer look

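Within the groups of 5, 32 sets of values of the detected probes were examined for a single liver far from the rest, and 2 had one, where chance gives about 1 in 20. Fos in wild-type liver 1 was at 7.9 with the nearest other liver at 6.7, a gap of 0.85 of the group's range. Csrnp1 in wild-type liver 3 was at 9.16 with the nearest at 8.72, a gap of 0.912 of the range. The untreated livers with the highest Fos and Egr1 did not meet this criterion.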

How the results depend on the processing

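The 42 log2 differences of the 7 detected members were recomputed under 1284 alternatives in all. Of these, 1264 moved by less than the SD between livers, 20 moved by more and 0 of the called differences changed sign. The called differences were those of Csrnp1 in the CoQ10 comparisons, whose sign could hardly change, since all CoQ10 livers lay below all others. Differences that were not called did change sign in places. Ier3 in probucol minus CoQ10 did so in 7 of 30 alternatives, and Junb in probucol minus untreated in 6 of 31. Csrnp1, whose call was known when it was chosen, is described here by its values, and its calls are no support for it. Median scaling left 0 members called in both comparisons (Csrnp1 at -1.34 and -1.15), and naming the groups by array prefix left 0 in the first and 1, Csrnp1 at 1.29, in probucol minus CoQ10. Leaving out each liver in turn, the difference ran from -1.42 to -1.12 against untreated and from -1.15 to -1.01 against wild type. The count of correlated pairs was 3 with all livers, from 0 to 4 when single livers were left out, 1 without the 2 farthest livers, with median scaling and in the authors' values, and 0 with no filter or with detection in all 20 arrays. The cause was not tested, except that the filters change which probes and how many pairs enter. In deviations over all kept probes, livers of different groups with the same replicate number correlated above 0.1 in 17 of 30 pairs (median 0.134). Those with different replicate numbers did so in 37 of 120 (median -0.045). For array number the counts were 22 of 36 with the same number and 32 of 114 with different numbers. In all 4 groups replicate 1 had array number 1 and replicate 5 had array number 4. The counts by replicate and by array number thus share pairs and are not separate observations. Replicate numbers were not taken as pairs in the main fit. With the replicate number as a block, 1 member, Csrnp1, was called in both CoQ10 comparisons (-1.29 and -1.11) and 3 member pairs passed. Over all probes, counts of calls ranged widely: 9 to 106 for untreated minus wild type (18 in the main setting), 0 to 2 for probucol minus untreated (2), 7 to 58 for CoQ10 minus untreated (18), 9 to 158 for probucol minus wild type (106), 9 to 317 for CoQ10 minus wild type (66), 0 to 19 for probucol minus CoQ10 (7) and 529 to 7425 for array number (1097). With single livers left out they ranged from 10 to 21, 0 to 7, 10 to 36, 25 to 270, 19 to 96, 2 to 65 and 148 to 1711 in the same order. Jun, Ier3 and Gadd45b lay near the detection limit, which limits the size of difference that can be seen in them.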
